A study of Homo sapiens with 18 samples.

Results

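A pair of engineered versions of one human cell line were compared here: MSC-hTERT cells labelled SRF-FOXO1 and MSC-hTERT cells labelled SRF-ICA1L. MSC-hTERT is an immortalized mesenchymal stem cell line, made to divide indefinitely by hTERT, the catalytic subunit of telomerase. The comparison took every library whose label names 1 of these 2 gene fusions, 3 per group and 6 of the 18 libraries of the series, and all 18544 genes that passed a filter on low counts. The other 12 libraries carry the empty retroviral vector name pMSCV, SRF alone, SRF-PDGFRB or SRF-RELA, 3 each, and entered only the estimate of spread or were set beside the results. Cells of all groups grew in the same medium, minimum essential medium alpha with serum (10%), FGF-2 at 1 ng/ml, heparin at 2 U/ml and ascorbic acid at 0.2 mM, and no drug or ligand treatment differs between the groups in the labels. The labels do not say how the fusions were introduced and selected, whether a group is 1 clone or a mixed population, or whether libraries 1, 2 and 3 came from separate cultures. P-values therefore measure only the spread between these libraries, which may be technical.

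Serum response factor, SRF, binds as a transcription factor to a short A- and T-rich DNA element, the CArG box, in front of actin, contractile and immediate early genes. On its own it activates weakly, and it works with partner proteins, the myocardin-related factors and the ternary complex factors. In the fusions studied here SRF is joined to part of another protein, and the series relates such fusions to soft tissue tumours with muscle-like features. FOXO1 is a forkhead transcription factor whose C-terminal part activates transcription, whereas ICA1L is a relative of the BAR-domain protein ICA1, which is known from membranes of the secretory pathway. The comparison asks how the expression programmes of cells carrying these 2 partners differ.

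Replicate values below are given in the order 1, 2, 3 as CPM, a library's count of a gene per 1000000 counts of that library. Log2 fold changes are SRF-FOXO1 minus SRF-ICA1L, so that positive values are higher in SRF-FOXO1, and SE is their standard error. ICA1L (chromosome 2, chr2:202773150-202871985) was at 153, 119.5 and 134 CPM in SRF-ICA1L and at 10.5, 8.34 and 10.6 CPM in SRF-FOXO1, where it was no higher than the 14.7, 12.8 and 13.1 CPM of pMSCV. Its log2 fold change was -3.82 with the block (SE 0.11, edgeR adjusted p 7.99e-12) and -3.82 without it (SE 0.17, adjusted p 2.42e-09), and reads of the native gene and of the construct are counted together. FOXO1 (chr13:40469953-40666597) was at 14.4, 7.63 and 7.36 CPM in SRF-FOXO1, against 15.3, 9.45 and 8.1 CPM in SRF-ICA1L and 17.4, 10.9 and 9.45 CPM in pMSCV. FOXO1 reads were thus not raised in the libraries whose label names it, so this gene does not check the label, and SRF-FOXO1 stands throughout for the libraries labelled SRF-FOXO1. SRF (chr6:43171299-43181507) was at 151, 211 and 183 CPM in SRF-FOXO1 and at 274, 277 and 274 CPM in SRF-ICA1L, with 61.1, 64.4 and 57.3 CPM in pMSCV. The groups did not overlap, but the log2 fold change of SRF, -0.62 with the block (SE 0.22, edgeR adjusted p 0.286) and -0.62 without it (SE 0.23, adjusted p 0.642), was not called in either fit.

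Total counts were 21618533 to 29806771 per library in SRF-FOXO1 and 23959470 to 28794272 in SRF-ICA1L. A count of 0 allows at most 3 counts, or 0.101 to 0.139 CPM in these 6 libraries, which like the count intervals below covers counting error only. The 7 mesenchymal stem cell markers were detected in each of the 6 libraries compared, with a summed level of 4235 to 5966 CPM in SRF-FOXO1 and 3716 to 4777 CPM in SRF-ICA1L. The 6 blood cell markers summed to at most 4.09 CPM, with ITGAM and CD3E at 0 in 6 of 6 libraries. The 6 endothelial markers summed to 138 to 362 CPM and 148 to 405 CPM, of which TEK gave 111 to 344 and 116 to 381 CPM, while CDH5 and VWF were at or under 1.46 CPM. The 6 epithelial markers summed to 98.7 to 228 CPM and 102 to 234 CPM, nearly all from KRT8 and KRT18, and EPCAM stayed at or under 0.537 CPM. Schwann and neural markers summed to 24.5 to 42.5 CPM and 17.7 to 27.3 CPM, with SOX10 at or under 0.104 CPM. Mitochondrial genes took 4.98% to 5.23% of counts in SRF-FOXO1 and 4.37% to 4.85% in SRF-ICA1L, which did not overlap, and the part of this in the results was not tested.

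The fusions parted few genes when each group's 3 libraries were compared directly, and many more once libraries with the same number were compared with each other. Without the replicate number in the model, 5 of 18544 tested genes were called by edgeR at an adjusted p under 0.05, which is 0.027%. All 5, ICA1L, ROR2, KLHDC8A, EXTL1 and ACP3, were lower in SRF-FOXO1. No gene was called higher, where 641 genes were higher at an unadjusted p under 0.05 and the DESeq2 Wald test called 47 higher and 38 lower. With the replicate number as a block, 169 genes were called, which is 0.911%, with 87 higher (0.469%) and 82 lower (0.442%) in SRF-FOXO1, and these include the 5. At an unadjusted p under 0.05 with the block, 1176 of the 18544 genes were higher and 902 lower. DESeq2 with the block called 176 higher and 168 lower. List counts below are to be read beside these numbers. Among the 169, the sign was the same in 3 of 3 same-numbered pairs for 169. The blocked fit favours genes whose same-numbered pairs agree, so this count is no separate support. For 129 of the 169 (65 higher, 64 lower) the 3 libraries of one group lay wholly above those of the other, against 8.63% of all tested genes. For the other 40 the ranges of the groups overlapped. The fold was at least 2 for 112 of the 169, 56 in each direction. The median SE of the 169 genes was 0.433 without and 0.242 with the block. Their log2 fold changes moved by a median of 0.03 between the fits. A small SE with the block helped to select these genes, so the fall in SE is no separate support. Each number occurs once per group, so the design itself keeps the estimates nearly in place. Across all tested genes the median log2 fold change was 0.01 in both fits. In bulk RNA, fewer cells expressing a gene and less of its RNA per cell cannot be told apart.

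**Figure D1:**
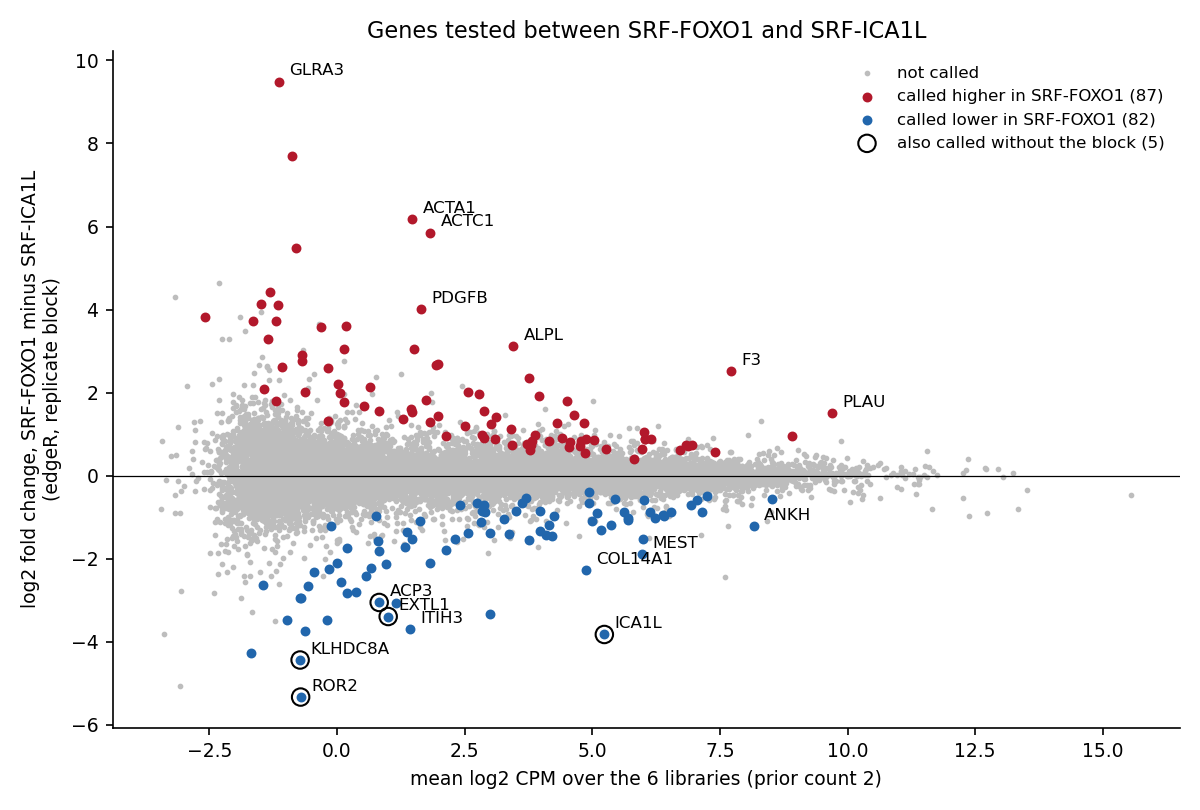
Log2 fold change with the replicate block (vertical axis, SRF-FOXO1 minus SRF-ICA1L) against mean log2 CPM over the 6 libraries (horizontal axis) for each of the 18544 tested genes. Red and blue points are the 87 genes called higher and the 82 called lower, rings mark the 5 genes also called without the block, and the height of GLRA3, at 0 counts in SRF-ICA1L, depends on the small count added by edgeR.

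**Figure D2:**
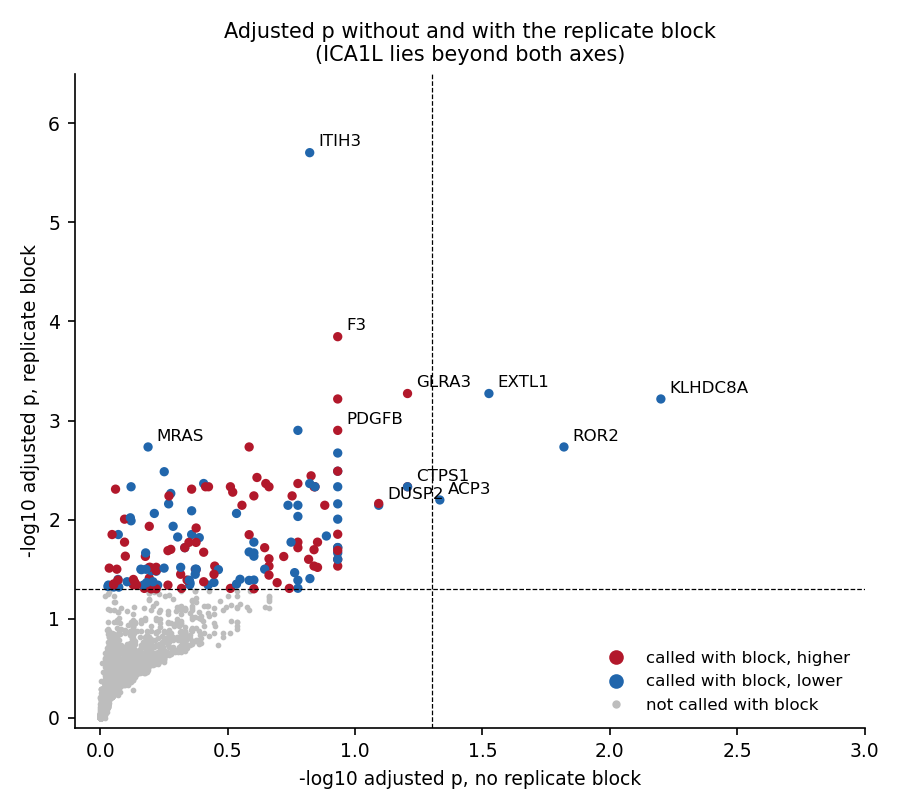
Minus log10 adjusted p of each tested gene without the replicate block (horizontal) and with it (vertical), with dashed lines at an adjusted p of 0.05. The 169 coloured genes lie above the horizontal line and 4 of them, besides ICA1L beyond both axes, also lie right of the vertical line.

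The call count rested on single libraries. Leaving out 1 of the 6 libraries left between 30 genes called with the block, without SRF-ICA1L replicate 2, and 176, without SRF-FOXO1 replicate 1. It was 59 without SRF-FOXO1 replicate 2 and 78 without SRF-ICA1L replicate 3. A core of 26 genes was called with the block in each of the 6 such fits. The 8 higher ones were ACTC1, PDGFB, F3, PLAU, NIPAL4, SSTR1, BCAR3 and ENSG00000288781. The 18 lower ones were ICA1L, ROR2, KLHDC8A, EXTL1, ACP3, ITIH3, DUSP2, MEST, CDH3, GDF6, FAIM2, ANKH, MRAS, UACA, FAM20A, LZTS1, KRT12 and FAXDC2. For the called genes described below, the fits that left out 1 library are given.

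ROR2 (chr9:91563091-91950162), a receptor tyrosine kinase for Wnt ligands, was nearly silent in SRF-FOXO1. Its counts were 3, 0 and 2 there and 86, 68 and 54 in SRF-ICA1L, a ratio of depth-scaled sums of 41 (95% exact interval 17.3 to 128). The 0 allows up to 0.117 CPM in that library. Its log2 fold change was -5.33 with the block (SE 0.63, edgeR adjusted p 0.00185) and -5.31 without it (SE 0.70, adjusted p 0.0151). KLHDC8A (chr1:205336065-205357090), a kelch-domain protein, had 1, 3 and 3 counts in SRF-FOXO1 and 47, 72 and 41 in SRF-ICA1L. The ratio was 22.6 (95% exact interval 10.7 to 57) and the log2 fold change -4.44 with the block (SE 0.50, edgeR adjusted p 0.000606) and -4.43 without it (SE 0.56, adjusted p 0.00631). Both genes stood near 0 in the SRF-FOXO1 libraries as in the vector: pMSCV had 0.0708, 0 and 0.0693 CPM of ROR2 and 0.0708, 0 and 0 CPM of KLHDC8A.

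EXTL1 (chr1:26019884-26036464), a glycosyltransferase of the exostosin family that builds heparan sulfate chains, was at 0.336, 0.979 and 0.509 CPM in SRF-FOXO1 and 6.69, 7.33 and 4.05 CPM in SRF-ICA1L. The groups were far apart in every pair, and the log2 fold change was -3.39 with the block (SE 0.37, edgeR adjusted p 0.000534) and -3.33 without it (SE 0.51, adjusted p 0.0298). ACP3 (chr3:132317367-132368298), an acid phosphatase first described in prostate, was at 1.01, 0.235 and 0.648 CPM and 8.87, 3.65 and 3.09 CPM, also without overlap. Its log2 fold change was -3.05 with the block (SE 0.48, edgeR adjusted p 0.00633) and -3.07 without it (SE 0.49, adjusted p 0.0465). With the block these 4 genes and ICA1L were called in 6 of 6 fits that left out 1 library, with adjusted p up to 0.0409. Without the block only ICA1L was called in each of those fits. KLHDC8A was then not called without SRF-ICA1L replicate 2 (adjusted p 0.0524). ROR2, without the block, was called only without SRF-FOXO1 replicate 1 and SRF-ICA1L replicate 3, and its adjusted p was 0.106 without SRF-FOXO1 replicate 3. EXTL1, without the block, was called only without SRF-FOXO1 replicate 2 and SRF-ICA1L replicate 3, and its adjusted p was 0.158 without SRF-FOXO1 replicate 3. ACP3, without the block, was called only without SRF-FOXO1 replicate 1 and SRF-ICA1L replicate 3, and its adjusted p was 0.231 without SRF-ICA1L replicate 1.

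**Figure D3:**
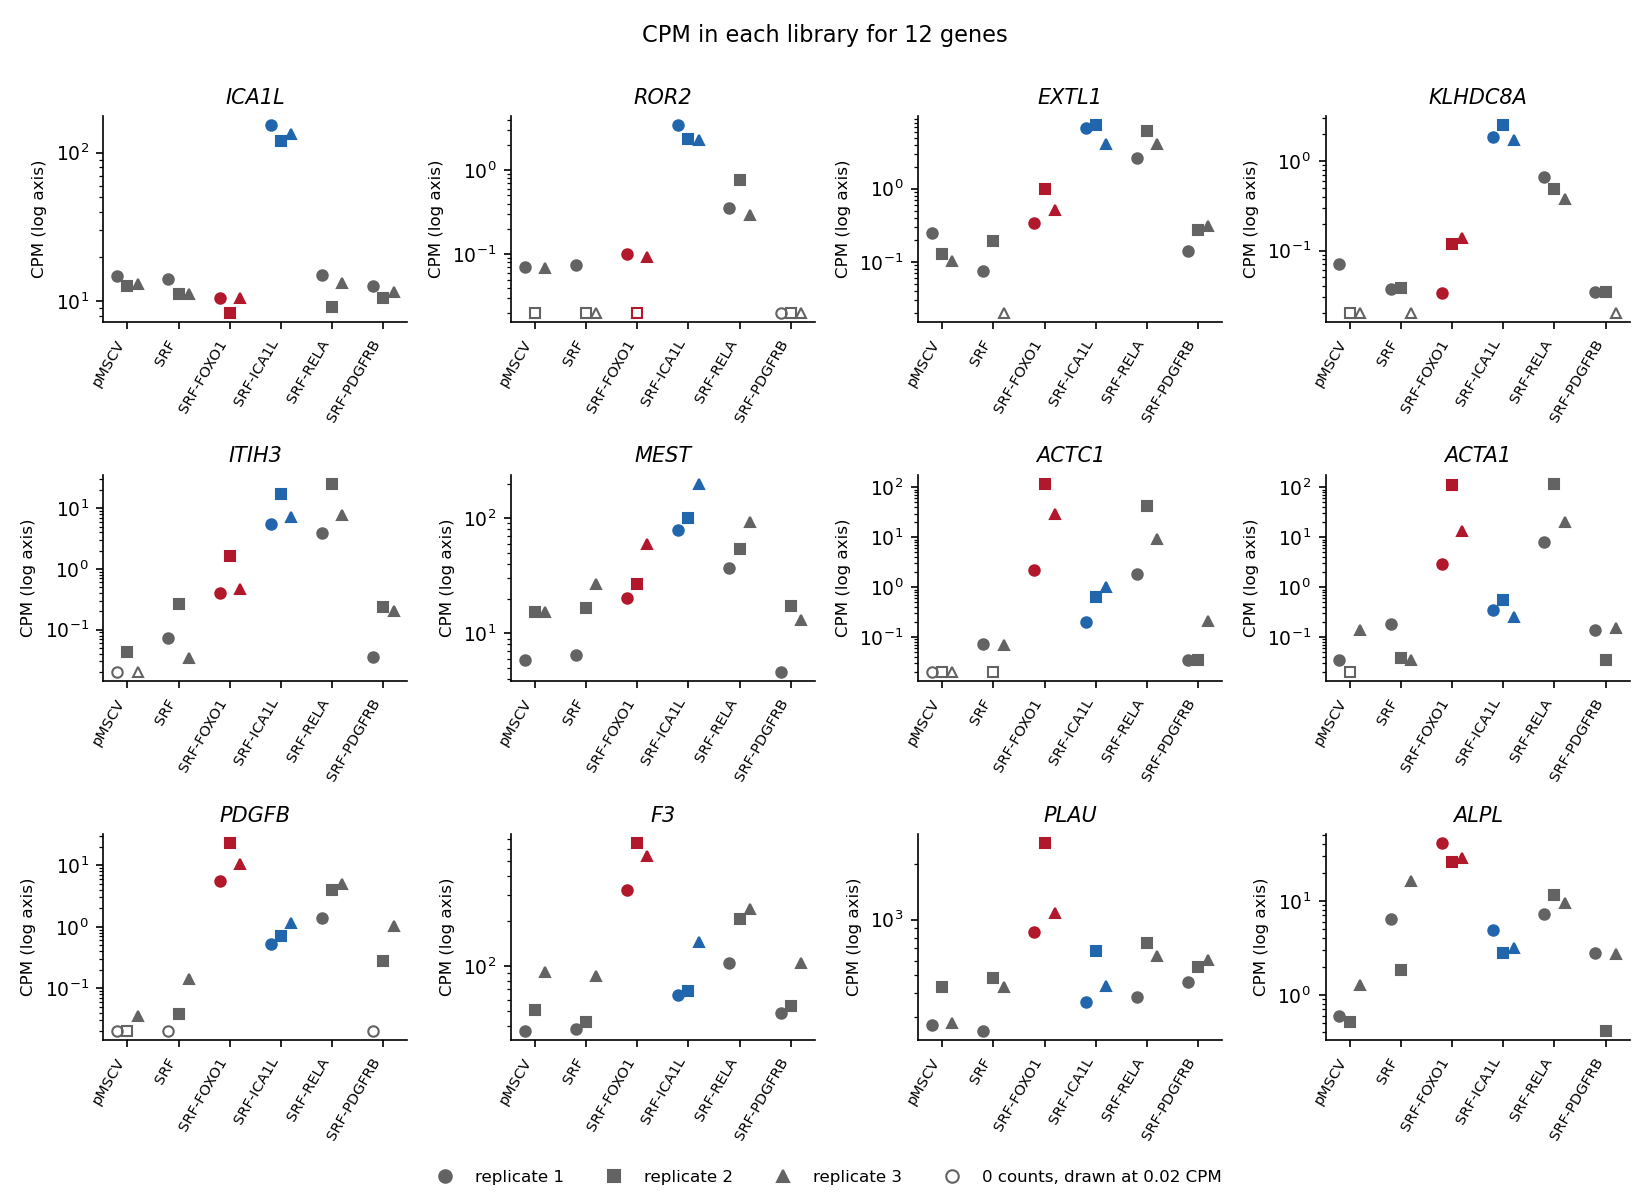
CPM on a log axis in each of the 18 libraries for 12 genes, with symbols for replicates 1, 2 and 3 and open symbols for 0 counts. SRF-FOXO1 (red) lies wholly below SRF-ICA1L (blue) for ICA1L, ROR2, EXTL1, KLHDC8A, ITIH3 and MEST and wholly above it for ACTC1, ACTA1, PDGFB, F3, PLAU and ALPL.

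The actins of striated muscle set SRF-FOXO1 apart among the genes that were higher. ACTA1 (chr1:229431245-229434098), the skeletal muscle alpha-actin, was at 2.85, 110.0 and 13.3 CPM in SRF-FOXO1 and 0.356, 0.556 and 0.25 CPM in SRF-ICA1L. ACTC1 (chr15:34788095-34795726), the cardiac alpha-actin, was at 2.25, 115 and 29.8 CPM and 0.198, 0.625 and 1.0 CPM. In both genes the lowest SRF-FOXO1 library, replicate 1, was above the highest SRF-ICA1L library, and replicate 2 was by far the highest. The log2 fold change was 6.18 with the block (SE 0.84, edgeR adjusted p 0.00466) and 6.76 without it (SE 1.41, adjusted p 0.145) for ACTA1. For ACTC1 it was 5.86 with the block (SE 0.70, edgeR adjusted p 0.00375) and 6.36 without it (SE 1.47, adjusted p 0.243). ACTA1 was not called without SRF-ICA1L replicate 2 (adjusted p 0.0933), and ACTC1 was called in 6 of 6 such fits. The coding sequences of actins resemble each other, and whether the counting moved reads between ACTA1, ACTC1, ACTA2 and ACTG2 was not tested.

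Since SRF binds CArG boxes, the 250 bases in front of 1 start per gene were searched for one on both strands, on RefSeq's GRCh38.p14. Other starts of the same gene were not searched. Promoter sequences were found for 12148 of the 18544 tested genes. Of 52 promoters of genes called higher with the block, 2 held a CArG box (3.85%), those of ACTA1 and ACTC1. Of 60 promoters of genes called lower, 1 did (1.67%), that of FILIP1L, and of the 12148, 131 did (1.08%). These 3 sequences are shown with that of ACTG2, a smooth muscle actin that was high in both fusions. Each is the 250 bases before the start, 5′ to 3′ on the gene's strand, with the CArG box in capitals, and a match is only a description. The boxes begin 97 bases before the start in ACTA1 (chr1:229434095-229434344, minus strand), 109 in ACTC1 (chr15:34795550-34795799, minus) and 60 in FILIP1L (chr3:99876174-99876423, minus). ACTG2 (chr2:73892758-73893007, plus) holds 2. The FILIP1L window lies wholly inside the annotated span of that gene given below, in front of an internal start.
ACTA1: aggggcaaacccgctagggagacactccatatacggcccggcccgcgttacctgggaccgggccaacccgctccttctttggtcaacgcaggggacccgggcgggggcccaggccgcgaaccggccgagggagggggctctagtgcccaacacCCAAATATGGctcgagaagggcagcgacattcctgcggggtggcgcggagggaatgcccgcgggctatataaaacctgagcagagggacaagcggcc
ACTC1: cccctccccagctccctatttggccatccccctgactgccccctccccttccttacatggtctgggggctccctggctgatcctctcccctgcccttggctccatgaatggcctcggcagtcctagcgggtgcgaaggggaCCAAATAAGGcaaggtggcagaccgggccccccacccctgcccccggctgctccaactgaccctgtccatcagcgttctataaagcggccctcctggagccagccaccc
FILIP1L: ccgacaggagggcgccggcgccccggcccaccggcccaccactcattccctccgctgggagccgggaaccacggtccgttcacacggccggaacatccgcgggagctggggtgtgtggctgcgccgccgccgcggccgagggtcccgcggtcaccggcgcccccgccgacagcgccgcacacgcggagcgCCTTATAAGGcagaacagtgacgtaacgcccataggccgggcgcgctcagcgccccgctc
ACTG2: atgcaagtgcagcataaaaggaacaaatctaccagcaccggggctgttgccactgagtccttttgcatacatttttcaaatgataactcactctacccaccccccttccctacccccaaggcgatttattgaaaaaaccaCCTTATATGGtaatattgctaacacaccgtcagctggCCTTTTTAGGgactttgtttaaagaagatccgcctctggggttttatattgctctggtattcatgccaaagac

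The forkhead motif TGTTTAC, searched on both strands, was in 1 of the 52 promoters of genes called higher (1.92%), in 0 of the 60 of genes called lower and in 2.07% of the 12148. The AP-1 motif TGACTCA was in 2 of 52 (3.85%), 1 of 60 (1.67%) and 2.99%. The 1 higher gene with the forkhead motif was RNF182, an E3 ubiquitin ligase chosen after its values were seen, at 19.4, 16.5 and 11.1 CPM in SRF-FOXO1 and 10.4, 5.63 and 5.47 CPM in SRF-ICA1L. RNF182 was not called without SRF-FOXO1 replicate 2 (adjusted p 0.0535), SRF-ICA1L replicate 2 (adjusted p 0.088) and SRF-ICA1L replicate 3 (adjusted p 0.0507). FILIP1L (chr3:99830141-100114513), a filamin-interacting protein, was at 56.5, 132 and 140.3 CPM and 120.3, 251 and 210.4 CPM. The groups overlapped, every pair was lower in SRF-FOXO1, and the log2 fold change was -0.88 with the block (SE 0.19, edgeR adjusted p 0.0423) and -0.85 without it (SE 0.38, adjusted p 0.784). FILIP1L was called only without SRF-FOXO1 replicate 3, and its adjusted p was 0.32 without SRF-ICA1L replicate 2.

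Beyond these actins, edgeR called 1 gene of the muscle lists. Of 13 tested striated muscle genes, 2 were called higher with the block, ACTA1 and ACTC1, and 0 lower, and the list's median log2 fold change was 0.42. With the block 11 of the 13 estimates were above 0, and 5 were higher and 0 lower at an unadjusted p under 0.05. TNNC1, the slow and cardiac troponin C, had a log2 fold change of 2.63 and was not called by edgeR (adjusted p 0.059), and DESeq2 with the block called it. MYOZ1, a sarcomeric Z-disc protein outside the lists and chosen after its values were seen, went the other way, at 0.0336, 0.0391 and 0.0463 CPM in SRF-FOXO1 and 0.594, 1.6 and 0.376 CPM in SRF-ICA1L (log2 fold change -4.27, edgeR adjusted p 0.00466; 0.144 without the block). MYOZ1 was not called without SRF-FOXO1 replicate 2 (adjusted p 0.0835) and SRF-ICA1L replicate 2 (adjusted p 0.0679). Of 23 smooth muscle genes, edgeR called 1, which was lower, and DESeq2 with the block called 2 higher and 1 lower. Most of this list went the other way, with 18 of 23 estimates above 0 with the block, where 9673 of 18544 genes were. At an unadjusted p under 0.05, 6 were higher and 1 lower. The edgeR call was PLN (phospholamban, the inhibitor of the sarcoplasmic calcium pump), at 1.07, 1.6 and 1.34 CPM in SRF-FOXO1 and 4.83, 4.65 and 3.17 CPM in SRF-ICA1L, log2 fold change -1.73 with the block (SE 0.37, edgeR adjusted p 0.040) and -1.69 without it (SE 0.43, adjusted p 0.283). PLN was called only without SRF-ICA1L replicate 3, and its adjusted p was 0.176 without SRF-ICA1L replicate 2.

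The classical smooth muscle genes did not pass the test in either fit. ACTG2, the enteric gamma-actin, was at 396, 590.3 and 485 CPM in SRF-FOXO1 and 165, 200.5 and 211 CPM in SRF-ICA1L, with no overlap, at a log2 fold change of 1.31 with the block (SE 0.50, edgeR adjusted p 0.348) and 1.33 without it (SE 0.71, adjusted p 0.883). ACTA2, the vascular alpha-actin, was at 69.6, 348 and 136 CPM and 66.7, 136 and 69 CPM and overlapped. MYH11, the smooth muscle myosin heavy chain, was at 1.38, 14.6 and 5.32 CPM and 0.752, 1.53 and 0.918 CPM, with SRF-FOXO1 replicate 1 inside the SRF-ICA1L range. Log2 fold changes with the block were 0.87 for ACTA2 (SE 0.43, edgeR adjusted p 0.488), 2.44 for MYH11 (SE 0.70, adjusted p 0.17), 0.39 for the calponin CNN1 (SE 0.26) and 0.21 for transgelin, TAGLN (SE 0.28). CNN1 was at 19, 91.3 and 48.9 CPM and 17.7, 50.0 and 43.2 CPM, and TAGLN at 359.5, 1182 and 592 CPM and 327, 740.5 and 668 CPM. Across the 23 genes the median was 0.30, and it was 0.04, 0.67 and 0.16 in pairs 1, 2 and 3. Without the block it was 0.38, and -0.15 without SRF-FOXO1 replicate 2.

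No broadly expressed cytoskeletal SRF target passed edgeR's test. Of 25 such genes, edgeR called 0 with the block, where it called 0.911% of all tested genes. At an unadjusted p under 0.05, 5 were higher and 1 lower, and DESeq2 with the block called 2 higher and 0 lower. With the block 17 of the 25 estimates were above 0. For 6 (24%) the groups did not overlap, against 8.63% of all tested genes. The DESeq2 calls were ITGA5 and TUFT1, and the list's median was 0.12. VCL (vinculin), which links actin to adhesion sites, was at 412, 1203 and 822 CPM in SRF-FOXO1 and 508, 658 and 704 CPM in SRF-ICA1L, log2 fold change 0.31 (SE 0.22, edgeR adjusted p 0.647; 0.928 without the block). Its sign turned without SRF-FOXO1 replicate 2, in both fits. Of the 6 SRF cofactors tested 0 were called, 0 were at an unadjusted p under 0.05 and DESeq2 called 0, with the factors MRTFA at -0.13 and MRTFB at -0.25 on the log2 scale. COTL1, a small F-actin binding protein named after its values were seen, was at 165, 157 and 147 CPM and 88.6, 85.6 and 104 CPM with no overlap, log2 fold change 0.73 with the block (SE 0.12, edgeR adjusted p 0.00687) and 0.72 without it (SE 0.13, adjusted p 0.0807). COTL1 was not called without SRF-ICA1L replicate 2 (adjusted p 0.0816).

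PDGFB (chr22:39223359-39244751), which encodes the B chain of platelet-derived growth factor, a mitogen for mesenchymal cells, was at 5.64, 22.8 and 10.4 CPM in SRF-FOXO1 and 0.515, 0.695 and 1.17 CPM in SRF-ICA1L. Every SRF-FOXO1 library was several-fold above every SRF-ICA1L library, and the log2 fold change was 4.0 with the block (SE 0.48, edgeR adjusted p 0.00126) and 4.04 without it (SE 0.79, adjusted p 0.117). PDGFB was called in 6 of 6 fits that left out 1 library. It was the 1 called gene of the 6 PDGF ligands and receptors tested by edgeR, whose median was -0.20. The receptor PDGFRA had -1.05 (edgeR adjusted p 0.0773) with no overlap between the groups, and DESeq2 with the block called it lower. PDGFRB was at -0.29 (adjusted p 0.599). FGF1 (chr5:142592178-142698070), acidic fibroblast growth factor, was at 28.4, 65.8 and 34.7 CPM and 11.1, 12.3 and 12.4 CPM, narrow in SRF-ICA1L and wider in SRF-FOXO1. Its log2 fold change was 1.8 with the block (SE 0.35, edgeR adjusted p 0.0294) and 1.84 without it (SE 0.36, adjusted p 0.117). FGF1 was called only without SRF-FOXO1 replicate 1 and SRF-FOXO1 replicate 3, and its adjusted p was 0.231 without SRF-ICA1L replicate 2. FGF1 was the 1 called gene of 8 in the FGF list (median 0.27). GDF6 (chr8:96142330-96160792), a bone morphogenetic protein family ligand, was lower in SRF-FOXO1, at 1.11, 5.01 and 1.85 CPM against 7.6, 8.75 and 7.3 CPM, log2 fold change -1.79 with the block (SE 0.28, edgeR adjusted p 0.00544) and -1.57 without it (SE 0.51, adjusted p 0.528). GDF6 was called in 6 of 6 such fits.

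F3 and PLAU, which start coagulation and activate plasminogen, were higher in SRF-FOXO1. F3 (chr1:94529225-94541800) encodes tissue factor, the cell-surface trigger of coagulation, and was at 324, 659 and 539.8 CPM in SRF-FOXO1 and 64.1, 68 and 145 CPM in SRF-ICA1L. Its lowest SRF-FOXO1 library was above its highest SRF-ICA1L library, and the log2 fold change was 2.52 with the block (SE 0.23, edgeR adjusted p 0.000143) and 2.45 without it (SE 0.49, adjusted p 0.117). PLAU (chr10:73909177-73917497), urokinase, which converts plasminogen to plasmin, was named after its values were seen. It was at 853, 2574 and 1089 CPM and 361, 677 and 439 CPM, log2 fold change 1.51 with the block (SE 0.23, edgeR adjusted p 0.00466) and 1.6 without it (SE 0.42, adjusted p 0.308). F3 and PLAU were called with the block in 6 of 6 fits that left out 1 library. F3 and the scaffold gene WWC1 were the 2 called members of 22 YAP-TEAD targets, both higher, at a list median of 0.34, and DESeq2 with the block called 3 higher and 0 lower. WWC1 was at 6.98, 15.5 and 12.7 CPM and 5.46, 6.04 and 6.3 CPM, log2 fold change 0.87 (SE 0.19, edgeR adjusted p 0.0401; 0.741 without the block). WWC1 was called only without SRF-FOXO1 replicate 1 and SRF-ICA1L replicate 1, and its adjusted p was 0.359 without SRF-ICA1L replicate 2. CCN1 and CCN2, the best known genes of that list, had 0.42 and 0.45 and were not called. The 34 tested genes of the TGF-beta and BMP pathway had a median of -0.03.

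Wnt pathway genes were called in both directions. Of 47 tested, 2 were called higher and 2 lower with the block, with a median of 0.11, and DESeq2 with the block called 3 higher and 2 lower. At an unadjusted p under 0.05 with the block, 12 were higher and 4 lower, beside 1176 and 902 of all 18544 tested genes. For 12 of the 47 (25.5%) the groups did not overlap, against 8.63% of all tested genes. ROR2, described above, and PRICKLE1, a planar cell polarity protein, were lower in SRF-FOXO1. PRICKLE1 (chr12:42456757-42590355) was at 11.5, 7.95 and 16.4 CPM against 27.4, 23.9 and 24.6 CPM in SRF-ICA1L, log2 fold change -1.18 with the block (SE 0.24, edgeR adjusted p 0.0319) and -1.13 without it (SE 0.30, adjusted p 0.344). RSPO2 (chr8:107899316-108083648), a secreted R-spondin that strengthens Wnt signals, had 30, 16 and 12 counts in SRF-FOXO1 and 1, 2 and 1 in SRF-ICA1L. This is a ratio of 14.7 (95% exact interval 5.44 to 55.7), log2 fold change 3.73 with the block (SE 0.67, edgeR adjusted p 0.014) and 3.69 without it (SE 0.75, adjusted p 0.117). WNT16 (chr7:121325367-121341104), a Wnt ligand, was at 1.58, 2.43 and 1.67 CPM and 0.673, 0.313 and 0.626 CPM, log2 fold change 1.77 with the block (SE 0.35, edgeR adjusted p 0.0252) and 1.8 without it (SE 0.36, adjusted p 0.117). PRICKLE1 was called only without SRF-ICA1L replicate 3, and its adjusted p was 0.245 without SRF-ICA1L replicate 2. RSPO2 was called only without SRF-FOXO1 replicate 2 and SRF-FOXO1 replicate 3, and its adjusted p was 0.16 without SRF-ICA1L replicate 2. WNT16 was not called without SRF-FOXO1 replicate 2 (adjusted p 0.155), SRF-ICA1L replicate 2 (adjusted p 0.249) and SRF-ICA1L replicate 3 (adjusted p 0.0757). ROR1, the paralogue of ROR2, had -0.54 (edgeR adjusted p 0.53), and WNT5A, the ligand known for ROR2, 0.61 (adjusted p 0.535).

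Heparan sulfate genes are relevant to FGF-2, which was in the medium with heparin and binds such chains. Of 29 tested, 1 was called higher and 2 lower with the block (median -0.01), and DESeq2 with the block called 1 higher and 3 lower. Besides EXTL1, the lower gene was GPC6, a glypican that carries heparan sulfate, at 63.3, 43.2 and 50.0 CPM in SRF-FOXO1 and 104, 114 and 87.8 CPM in SRF-ICA1L, log2 fold change -1.02 with the block (SE 0.22, edgeR adjusted p 0.0409) and -1.01 without it (SE 0.30, adjusted p 0.447). The higher one was SDC1, a syndecan that carries such chains across the membrane, at 161, 122 and 162 CPM and 87.9, 71.2 and 105 CPM, log2 fold change 0.72 with the block (SE 0.16, edgeR adjusted p 0.0494) and 0.72 without it (SE 0.19, adjusted p 0.308). Neither pair of groups overlapped. GPC6 was called only without SRF-ICA1L replicate 1, and its adjusted p was 0.292 without SRF-ICA1L replicate 2. SDC1 was called in 0 of 6, with an adjusted p up to 0.335 without SRF-ICA1L replicate 2. The polymerases EXT1 and EXT2 had 0.05 and 0.08 on the log2 scale, with edgeR adjusted p of 0.883 and 0.783, and the sulfatase SULF1 had -2.45 (adjusted p 0.132) with no overlap, which DESeq2 with the block called.

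Genes of the extracellular matrix leaned to SRF-ICA1L. Of 47 matrix glycoproteins and proteoglycans, 4 were called lower in SRF-FOXO1 and 0 higher with the block. At an unadjusted p under 0.05, 2 were higher and 18 lower, beside 1176 and 902 of all 18544 tested genes. DESeq2 with the block called 0 higher and 7 lower. The list's median was -0.24 with and -0.24 without the block, beside 0.01 for all tested genes. It was -0.47, -0.18 and -0.18 in pairs 1, 2 and 3, and 36 of 47 estimates were below 0. OGN (osteoglycin), a small proteoglycan, was at 0.302, 0 and 0.694 CPM in SRF-FOXO1 and 4.08, 1.04 and 3.8 CPM in SRF-ICA1L, where the 0 allows up to 0.117 CPM. MGP, the matrix Gla protein that restrains calcification, was at 0.168, 0.352 and 0.0925 CPM and 0.99, 3.72 and 0.501 CPM. EFEMP1 (fibulin-3) was at 35.2, 93.4 and 62.5 CPM and 61.9, 182 and 121 CPM and overlapped between groups, though each pair was lower in SRF-FOXO1. MFAP4, a microfibril protein, was at 62.9, 70.2 and 69.1 CPM and 116, 132 and 114 CPM with no overlap. The log2 fold changes with the block were -3.47 for OGN (SE 0.58, edgeR adjusted p 0.00865), -2.93 for MGP (SE 0.54, 0.0169), -0.95 for EFEMP1 (SE 0.21, 0.0478) and -0.87 for MFAP4 (SE 0.19, 0.041). Without the block their adjusted p were 0.613, 0.249, 0.884 and 0.26. OGN was not called without SRF-FOXO1 replicate 1 (adjusted p 0.055) and SRF-ICA1L replicate 3 (adjusted p 0.0507). MGP was not called without SRF-FOXO1 replicate 2 (adjusted p 0.141) and SRF-ICA1L replicate 2 (adjusted p 0.281). EFEMP1 was called only without SRF-ICA1L replicate 1, and its adjusted p was 0.291 without SRF-ICA1L replicate 2. MFAP4 was called only without SRF-ICA1L replicate 1, and its adjusted p was 0.343 without SRF-ICA1L replicate 2.

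FN1 (fibronectin), the most abundant gene, took 2.41% to 5.90% of counts in SRF-FOXO1 and 4.74% to 7.44% in SRF-ICA1L and was not called (log2 fold change -0.46, edgeR adjusted p 0.586). Among 35 collagen genes, 1 was called, COL14A1, which encodes a collagen that coats fibrils. It was lower in SRF-FOXO1, at 12, 16.8 and 11.4 CPM against 50.3, 111 and 38.5 CPM, log2 fold change -2.28 with the block (SE 0.47, edgeR adjusted p 0.0457) and -2.36 without it (SE 0.64, adjusted p 0.377). COL14A1 was called only without SRF-ICA1L replicate 1, and its adjusted p was 0.291 without SRF-ICA1L replicate 2. The collagen list's median was -0.10, and DESeq2 with the block called 1 higher and 2 lower. Of 21 metalloproteinases and TIMPs 0 were called, with 2 higher and 2 lower at an unadjusted p under 0.05, and DESeq2 with the block called 0 higher and 0 lower (median -0.12).

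ITIH3 (chr3:52794768-52809009), a heavy chain that is attached to hyaluronan in the matrix, had the next smallest adjusted p with the block after ICA1L. It was at 0.403, 1.64 and 0.463 CPM in SRF-FOXO1 and 5.5, 17.1 and 7.26 CPM in SRF-ICA1L, highest in replicate 2 of each group, and the log2 ratio was -3.61, -3.33 and -3.79 in pairs 1, 2 and 3. The log2 fold change was -3.7 with the block (SE 0.25, edgeR adjusted p 1.99e-06) and -3.59 without it (SE 0.77, adjusted p 0.151), and ITIH3 was called in 6 of 6 fits that left out 1 library. LINC01614, a long non-coding RNA, was at 2.01, 3.6 and 1.99 CPM and 18.1, 40.1 and 17.7 CPM, log2 fold change -3.32 with the block (SE 0.51, edgeR adjusted p 0.00693) and -3.35 without it (SE 0.65, adjusted p 0.117). CILP, a cartilage matrix protein named after its values were seen, was at 0.302, 0.431 and 0.37 CPM and 1.31, 2.95 and 1.08 CPM, log2 fold change -2.25 (SE 0.41, edgeR adjusted p 0.0146; 0.13 without the block). Neither overlapped between groups. LINC01614 was not called without SRF-FOXO1 replicate 2 (adjusted p 0.0657) and SRF-ICA1L replicate 2 (adjusted p 0.065). CILP was not called without SRF-FOXO1 replicate 2 (adjusted p 0.133) and SRF-ICA1L replicate 2 (adjusted p 0.202).

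**Figure D4:**
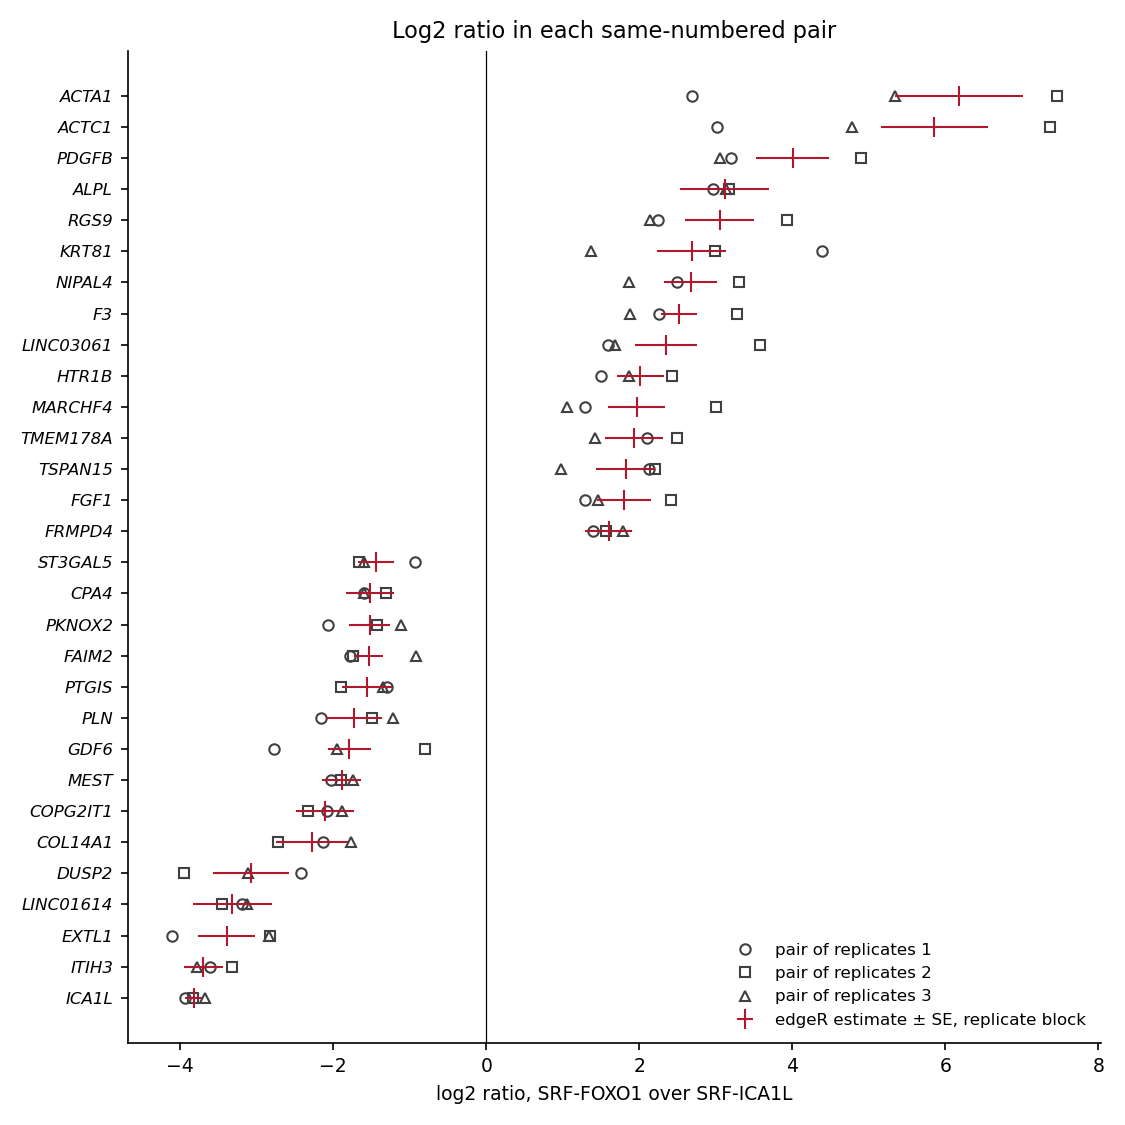
Log2 ratio of SRF-FOXO1 over SRF-ICA1L (horizontal axis) within each same-numbered pair, as open symbols, for the 15 genes called higher and the 15 called lower with the largest change with the block at a mean log2 CPM of at least 1. Red ticks and bars are the edgeR estimate with the block and its standard error. Genes were chosen only if their same-numbered pairs shared a sign, so each symbol of a gene lies on the same side of 0.

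Among adhesion and cell surface genes, 2 integrins and 3 keratins were higher in SRF-FOXO1 and CDH3 was lower. ITGA6, an integrin chain that binds laminin, was at 70.9, 92 and 102 CPM in SRF-FOXO1 and 40.2, 36.6 and 66 CPM in SRF-ICA1L, without overlap, log2 fold change 0.89 with the block (SE 0.13, edgeR adjusted p 0.00466) and 0.87 without it (SE 0.24, adjusted p 0.376). ITGB3, the beta chain of the vitronectin receptor, was at 26.6, 96.1 and 29.9 CPM and 12.6, 27.3 and 17.2 CPM, where SRF-ICA1L replicate 2 lay inside the SRF-FOXO1 range, log2 fold change 1.27 with the block (SE 0.22, edgeR adjusted p 0.0117) and 1.41 without it (SE 0.51, adjusted p 0.642). These were the 2 called of 18 integrin genes (median 0.08), and DESeq2 with the block called 4 higher and 0 lower. CDH3 (chr16:68636189-68722616), P-cadherin, was at 4.87, 20.4 and 10.1 CPM and 16.5, 38.1 and 30.6 CPM and overlapped between groups, yet each SRF-FOXO1 library was below its SRF-ICA1L partner. Its log2 fold change was -1.44 with the block (SE 0.21, edgeR adjusted p 0.00466) and -1.28 without it (SE 0.54, adjusted p 0.756), and it was the 1 called of 13 cadherins (median 0.04). ITGA6 was not called without SRF-ICA1L replicate 2 (adjusted p 0.0553). ITGB3 was not called without SRF-ICA1L replicate 2 (adjusted p 0.102). CDH3 was called in 6 of 6.

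Of 10 keratin genes tested, 3 were called higher with the block and 0 lower, with 7 higher and 0 lower at an unadjusted p under 0.05, and DESeq2 with the block called 3 higher and 0 lower. KRT81, a hair keratin, was at 4.16, 35.2 and 7.77 CPM in SRF-FOXO1 and 0.119, 4.34 and 2.92 CPM in SRF-ICA1L, log2 fold change 2.69 (SE 0.45, edgeR adjusted p 0.00989; 0.802 without the block). KRT86 was at 0.47, 5.6 and 2.04 CPM and 0.119, 0.729 and 0.96 CPM, log2 fold change 1.99 (SE 0.37, edgeR adjusted p 0.0169; 0.802 without the block). KRT80 was at 2.82, 44.6 and 19.5 CPM and 1.19, 11.5 and 9.56 CPM, log2 fold change 1.42 (SE 0.29, edgeR adjusted p 0.0308; 0.921 without the block). In each of the 3 the groups overlapped, and replicate 1 was lowest in both. The epithelial keratins KRT8 and KRT18 had 0.16 and -0.20 and were not called, and the list's median was 1.19 with the block (1.24 without it, 0.57 without SRF-FOXO1 replicate 2). KRT81 (chr12:52285913-52291534, minus strand) lies inside the annotated span of KRT86 (chr12:52249300-52309163, plus strand), hair keratins resemble each other, and the strand setting of the counting is not given in the sources used here. KRT12, a corneal keratin outside the list and chosen after its values were seen, was lower, at 0.0671, 0.352 and 0.0463 CPM and 1.23, 2.74 and 2.04 CPM, log2 fold change -3.75 (SE 0.62, edgeR adjusted p 0.00716; 0.168 without the block). KRT12 was called in 6 of 6 fits that left out 1 library. KRT81 was not called without SRF-FOXO1 replicate 2 (adjusted p 0.0818) and SRF-ICA1L replicate 2 (adjusted p 0.134). KRT86 was not called without SRF-FOXO1 replicate 2 (adjusted p 0.174) and SRF-ICA1L replicate 2 (adjusted p 0.308). KRT80 was called only without SRF-FOXO1 replicate 1, and its adjusted p was 0.288 without SRF-ICA1L replicate 2.

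Axon guidance genes were called in both directions, 3 higher and 1 lower of 40 tested with the block (median -0.01), and DESeq2 with the block called 4 higher and 3 lower. EFNB2, a membrane ligand of Eph receptors, was at 22.8, 39.9 and 30.4 CPM in SRF-FOXO1 and 14.7, 17.9 and 18.6 CPM in SRF-ICA1L with no overlap, log2 fold change 0.80 with the block (SE 0.13, edgeR adjusted p 0.00577) and 0.84 without it (SE 0.28, adjusted p 0.537). The semaphorin receptor PLXNA2 was at 11.6, 26 and 25.9 CPM and 6.85, 10.0 and 14.8 CPM, log2 fold change 0.97 (SE 0.20, edgeR adjusted p 0.0356; 0.483 without the block). Its paralogue PLXNA4 was at 0.268, 2.11 and 0.185 CPM and 0.158, 0.313 and 0.0417 CPM, log2 fold change 2.08 (SE 0.46, edgeR adjusted p 0.0454; 0.886 without the block), and was high only in SRF-FOXO1 replicate 2. DESeq2 with the block did not call PLXNA4 (adjusted p 0.0925). The semaphorin SEMA3E was lower, at 1.71, 10.9 and 12.4 CPM and 6.89, 27.1 and 21.1 CPM, log2 fold change -1.41 (SE 0.31, edgeR adjusted p 0.0472; 0.932 without the block). For PLXNA2, PLXNA4 and SEMA3E the groups overlapped. EFNB2 was not called without SRF-ICA1L replicate 2 (adjusted p 0.0737). PLXNA2 was called only without SRF-FOXO1 replicate 1 and SRF-ICA1L replicate 3, and its adjusted p was 0.282 without SRF-ICA1L replicate 2. PLXNA4 was called only without SRF-FOXO1 replicate 1 and SRF-ICA1L replicate 1, and its adjusted p was 0.763 without SRF-ICA1L replicate 2. SEMA3E was called only without SRF-ICA1L replicate 3, and its adjusted p was 0.42 without SRF-ICA1L replicate 2.

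Among genes that growth factor signals switch on within minutes, the called members of the list were lower in SRF-FOXO1, and so was the phosphatase DUSP2. DUSP2 (chr2:96143166-96145440), a nuclear phosphatase that inactivates MAP kinases, was at 1.24, 0.274 and 0.786 CPM in SRF-FOXO1 and 6.61, 5.24 and 7.26 CPM in SRF-ICA1L. Its groups were well apart, and the log2 fold change was -3.07 with the block (SE 0.50, edgeR adjusted p 0.00716) and -3.08 without it (SE 0.55, adjusted p 0.0807). EGR2 (chr10:62811996-62919900), a zinc finger factor, was at 31.7, 16.1 and 22.1 CPM and 79.6, 41.4 and 46.9 CPM, log2 fold change -1.3 with the block (SE 0.22, edgeR adjusted p 0.0103) and -1.31 without it (SE 0.56, adjusted p 0.756). BTG2, an antiproliferative transcript regulator, was at 5.17, 5.83 and 5.0 CPM and 10.7, 10.7 and 7.68 CPM, log2 fold change -0.88 with the block (SE 0.19, edgeR adjusted p 0.0407) and -0.89 without it (SE 0.22, adjusted p 0.249). DUSP2 was called in 6 of 6. EGR2 was not called without SRF-ICA1L replicate 2 (adjusted p 0.0964). BTG2 was called in 0 of 6, with an adjusted p up to 0.343 without SRF-ICA1L replicate 2. ARC, an activity-induced gene outside the list and chosen after its values were seen, was higher, at 1.68, 3.64 and 2.08 CPM and 0.633, 0.695 and 0.876 CPM (log2 fold change 1.69, SE 0.33, edgeR adjusted p 0.0248 with and 0.218 without the block). ARC was called only without SRF-FOXO1 replicate 1 and SRF-FOXO1 replicate 3, and its adjusted p was 0.288 without SRF-ICA1L replicate 2. EGR2 and BTG2 were the 2 called of 29 immediate early genes, with 2 higher and 4 lower at an unadjusted p under 0.05, and DESeq2 with the block called 1 higher and 2 lower. The list's median was -0.01, and without the block it ran from -0.41 without SRF-FOXO1 replicate 1 to 0.44 without SRF-ICA1L replicate 1. FOS was at 706, 12.1 and 431 CPM and 836, 34.4 and 427 CPM, and EGR1 at 626, 74.7 and 396 CPM and 913, 224 and 464 CPM. In both, replicate 2 was far below 1 and 3 in each group, and neither was called (edgeR adjusted p 0.506 and 0.31 with the block, log2 fold change -0.60 and -0.87). Of 15 ERK feedback genes 0 were called, with 3 higher and 2 lower at an unadjusted p under 0.05, and DESeq2 with the block called 0 higher and 0 lower (median 0.03).

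Receptors and signal transducers outside these lists were chosen by the size of their change. RGS9, a GTPase-activating protein that ends G protein signals, was at 3.66, 13.2 and 7.72 CPM in SRF-FOXO1 and 0.673, 0.799 and 1.67 CPM in SRF-ICA1L, log2 fold change 3.05 with the block (SE 0.45, edgeR adjusted p 0.00466) and 2.97 without it (SE 0.70, adjusted p 0.218). HTR1B, a serotonin receptor, was at 5.43, 20.9 and 12.6 CPM and 1.78, 3.82 and 3.34 CPM, log2 fold change 2.01 with the block (SE 0.31, edgeR adjusted p 0.00492) and 2.11 without it (SE 0.62, adjusted p 0.438). The groups of both genes were apart. Also higher were NIPAL4, a membrane protein of the magnesium transporter family, at 5.27, 23.9 and 5.74 CPM and 0.832, 2.36 and 1.5 CPM (log2 fold change 2.67, SE 0.35, edgeR adjusted p 0.00185 with and 0.26 without the block), and the non-coding RNA LINC03061, at 15.3, 48.1 and 32.9 CPM and 4.79, 3.96 and 10.1 CPM (log2 fold change 2.35, SE 0.41, edgeR adjusted p 0.0142 with and 0.26 without the block). RGS9 was not called without SRF-ICA1L replicate 2 (adjusted p 0.0594). HTR1B was not called without SRF-ICA1L replicate 2 (adjusted p 0.0656). NIPAL4 was called in 6 of 6. LINC03061 was not called without SRF-ICA1L replicate 2 (adjusted p 0.151) and SRF-ICA1L replicate 3 (adjusted p 0.0541). The groups overlapped for MARCHF4, a membrane-bound ubiquitin ligase, TMEM178A, TSPAN15, a tetraspanin, and FRMPD4, a scaffold protein. Their log2 fold changes with the block were 1.96, 1.93, 1.82 and 1.6, with edgeR adjusted p of 0.0199, 0.0302, 0.0407 and 0.0234 with and 0.528, 0.603, 0.851 and 0.797 without the block. MARCHF4 was not called without SRF-ICA1L replicate 1 (adjusted p 0.0659), SRF-ICA1L replicate 2 (adjusted p 0.234) and SRF-ICA1L replicate 3 (adjusted p 0.0621). TMEM178A was called only without SRF-FOXO1 replicate 1 and SRF-ICA1L replicate 3, and its adjusted p was 0.247 without SRF-ICA1L replicate 2. TSPAN15 was called only without SRF-FOXO1 replicate 3, and its adjusted p was 0.268 without SRF-FOXO1 replicate 2. FRMPD4 was called only without SRF-FOXO1 replicate 1, and its adjusted p was 0.187 without SRF-FOXO1 replicate 2.

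Lower in SRF-FOXO1 were FAIM2, an inhibitor of Fas-induced death, at 2.88, 3.25 and 2.45 CPM against 9.62, 11 and 4.63 CPM (log2 fold change -1.54, SE 0.19, edgeR adjusted p 0.00126 with and 0.168 without the block), and ST3GAL5, the sialyltransferase that makes ganglioside GM3, at 15, 8.73 and 10.2 CPM against 27.3, 27.9 and 30.6 CPM (log2 fold change -1.44, SE 0.24, edgeR adjusted p 0.00865 with and 0.292 without the block). PTGIS, the prostacyclin synthase, was at 10.9, 5.64 and 7.54 CPM and 25.5, 21.1 and 19 CPM, log2 fold change -1.55 (SE 0.33, edgeR adjusted p 0.0423; 0.62 without the block). These 3 did not overlap between groups. PKNOX2, a homeobox factor, was at 0.537, 2.51 and 2.45 CPM and 2.38, 6.88 and 5.34 CPM, with SRF-ICA1L replicate 1 inside the SRF-FOXO1 range, log2 fold change -1.53 (SE 0.27, edgeR adjusted p 0.0141; 0.849 without the block). FAIM2 was called in 6 of 6. ST3GAL5 was not called without SRF-FOXO1 replicate 2 (adjusted p 0.052) and SRF-ICA1L replicate 2 (adjusted p 0.0798). PTGIS was called only without SRF-ICA1L replicate 1, and its adjusted p was 0.291 without SRF-ICA1L replicate 2. PKNOX2 was not called without SRF-FOXO1 replicate 2 (adjusted p 0.107), SRF-ICA1L replicate 2 (adjusted p 0.0679) and SRF-ICA1L replicate 3 (adjusted p 0.0529). Genes named after their values were seen include MRAS, a RAS-family GTPase, at 28.9, 26.4 and 18.9 CPM and 55.1, 45.4 and 35.1 CPM (log2 fold change -0.90, SE 0.12, edgeR adjusted p 0.00185 with and 0.649 without the block), and UACA, a coiled-coil protein, at 96.3, 80.2 and 107 CPM and 148, 146 and 154 CPM (log2 fold change -0.71, SE 0.11, edgeR adjusted p 0.00466 with and 0.117 without the block). Both were called in 6 of 6 fits that left out 1 library. CDKN2B, the cell cycle inhibitor p15, was at 43.2, 33.9 and 29.7 CPM and 91.7, 74.2 and 52.7 CPM (log2 fold change -1.06, SE 0.18, edgeR adjusted p 0.00814 with and 0.438 without the block). CDKN2B was not called without SRF-ICA1L replicate 2 (adjusted p 0.0834). All 3 were lower in SRF-FOXO1 with no overlap.

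Genes of bone and fat formation were called singly rather than as a list. ALPL (chr1:21509372-21578412), the alkaline phosphatase that marks bone-forming cells, was at 40.8, 26 and 28.4 CPM in SRF-FOXO1 and 4.91, 2.81 and 3.13 CPM in SRF-ICA1L. The pairs were nearly equal, with log2 ratios of 2.96, 3.17 and 3.13, and the log2 fold change was 3.12 with the block (SE 0.58, edgeR adjusted p 0.0251) and 3.1 without it (SE 0.66, adjusted p 0.152). PPARG (chr3:12287368-12434356), the nuclear receptor that drives fat cell formation, was at 0.57, 3.17 and 1.16 CPM and 0.119, 0.208 and 0.25 CPM, log2 fold change 2.91 with the block (SE 0.57, edgeR adjusted p 0.0235) and 3.06 without it (SE 0.71, adjusted p 0.19). They were the 2 called of 15 lineage genes, and the list's median was -0.19, below 0. RUNX2 and SOX9, the master factors of bone and cartilage, had -0.19 and 0.01, and CEBPA of fat 0.04, and none was called. ANKH (chr5:14704800-14871785), which exports pyrophosphate and so counters mineral deposition, was named after its values were seen. It was lower in SRF-FOXO1, at 256, 166 and 146 CPM against 476, 466 and 327 CPM, log2 fold change -1.21 with the block (SE 0.18, edgeR adjusted p 0.00432) and -1.2 without it (SE 0.34, adjusted p 0.392). ALPL was called only without SRF-FOXO1 replicate 3, and its adjusted p was 0.178 without SRF-ICA1L replicate 2. PPARG was called only without SRF-FOXO1 replicate 1 and SRF-FOXO1 replicate 3, and its adjusted p was 0.343 without SRF-ICA1L replicate 2. ANKH was called in 6 of 6 such fits.

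MEST, CPA4 and COPG2IT1, which were chosen by the size of their change, were called lower in SRF-FOXO1 with the block. MEST (chr7:130486171-130506465), an imprinted gene of the alpha/beta hydrolase family, was at 20.3, 27 and 59.7 CPM in SRF-FOXO1 and 78.7, 101 and 197 CPM in SRF-ICA1L. Replicate 3 was highest in each group, the groups did not overlap, and the log2 fold change was -1.89 with the block (SE 0.25, edgeR adjusted p 0.00328) and -1.84 without it (SE 0.61, adjusted p 0.56). COPG2IT1, a non-coding transcript named for an intron of COPG2, was at 0.671, 1.72 and 3.33 CPM and 2.93, 8.96 and 12.3 CPM, log2 fold change -2.11 (SE 0.38, edgeR adjusted p 0.0152; 0.408 without the block). CPA4 (chr7:130293134-130324180), a carboxypeptidase, was at 22.8, 31.8 and 69.7 CPM and 65.5, 78.9 and 208 CPM, log2 fold change -1.52 (SE 0.31, edgeR adjusted p 0.0401; 0.851 without the block). MEST was called in 6 of 6. COPG2IT1 was not called without SRF-FOXO1 replicate 2 (adjusted p 0.131), SRF-ICA1L replicate 2 (adjusted p 0.0798) and SRF-ICA1L replicate 3 (adjusted p 0.101). CPA4 was called in 0 of 6, with an adjusted p up to 0.197 without SRF-FOXO1 replicate 2. COPG2IT1 has no position in the annotation used here, and without a known strand setting reads of overlapping genes could have been shared.

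Further genes named after their values were seen were higher in SRF-FOXO1. GLRA3, a glycine receptor subunit, had 33, 154 and 53 counts in SRF-FOXO1 and 0 in each SRF-ICA1L library, so that it was at least 27.5-fold higher against a floor of 3 counts per library. Its edgeR adjusted p was 0.000534 with and 0.0622 without the block, and DESeq2 gave 0.58 with the block. NUP210, a nuclear pore protein, had 7, 255 and 63 counts against 1, 3 and 2, and its adjusted p was 0.00361 with and 0.149 without the block. Most of its counts came from SRF-FOXO1 replicate 2. THRB, a thyroid hormone receptor, was at 0.906, 6.38 and 2.59 CPM and 0.0792, 0.625 and 0.0417 CPM (log2 fold change 3.58, SE 0.57, edgeR adjusted p 0.00576 with and 0.177 without the block). CTPS1, the CTP synthase of nucleotide supply, was at 82.2, 111 and 90.1 CPM and 46, 46.8 and 58.7 CPM, log2 fold change 0.87 with the block (SE 0.13, edgeR adjusted p 0.00466) and 0.88 without it (SE 0.15, adjusted p 0.0622). STC2, the secreted glycoprotein stanniocalcin 2, was at 65.1, 108 and 105 CPM and 38.7, 43.5 and 46.8 CPM (log2 fold change 1.05, SE 0.20, edgeR adjusted p 0.0192 with and 0.466 without the block). None of these overlapped between groups. GLRA3 was not called without SRF-FOXO1 replicate 2 (adjusted p 0.059). NUP210 was not called without SRF-ICA1L replicate 2 (adjusted p 0.102). THRB was not called without SRF-FOXO1 replicate 2 (adjusted p 0.0979). CTPS1 was not called without SRF-ICA1L replicate 2 (adjusted p 0.0594). STC2 was not called without SRF-FOXO1 replicate 2 (adjusted p 0.133), SRF-ICA1L replicate 2 (adjusted p 0.126) and SRF-ICA1L replicate 3 (adjusted p 0.102).

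FOXO target genes gave 1 call between the fusions. Of 27 known FOXO targets tested, 1 was called higher with the block and 0 lower, with 4 higher and 4 lower at an unadjusted p under 0.05, and DESeq2 with the block called 1 higher and 0 lower. Of all tested genes, 0.469% were called higher and 0.442% lower with the block. The list's median was -0.04, and 10 of 27 estimates were above 0. For 5 of the 27 (18.5%) the groups did not overlap, against 8.63% of all tested genes. The called gene was GADD45A, a stress-induced inhibitor of growth, at 37.4, 48.4 and 42.6 CPM in SRF-FOXO1 and 27, 16.1 and 28.6 CPM in SRF-ICA1L, log2 fold change 0.85 with the block (SE 0.17, edgeR adjusted p 0.0294) and 0.83 without it (SE 0.20, adjusted p 0.218). GADD45A was not called without SRF-FOXO1 replicate 2 (adjusted p 0.154), SRF-ICA1L replicate 2 (adjusted p 0.264) and SRF-ICA1L replicate 3 (adjusted p 0.084). PDK4, the pyruvate dehydrogenase kinase that is a textbook FOXO target, had 1.81 (edgeR adjusted p 0.193) with no overlap between the groups. CDKN1A, p21, had 0.52 (adjusted p 0.259), also with no overlap, and CDKN1B, TXNIP, FBXO32 and CCNG2 had -0.01, -0.24, -0.17 and -0.22. The FOXO genes themselves gave -0.21 for FOXO1, -0.08 for FOXO3, -0.17 for FOXO4 and -0.47 for FOXO6. None of the 4 was called, 0 were at an unadjusted p under 0.05 and DESeq2 called 0. On the other side, of ICA1L's relatives, ICA1 had 0.05, PICK1 -0.13, ARFIP1 0.01 and ARFIP2 -0.14, and ICA1L alone of the 5 was called.

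Cell cycle genes were placed above 0 throughout without any passing the test. All 30 tested had a positive estimate with the block, where 9673 of 18544 genes did, and the median was 0.60 (0.53 without the block). edgeR called 0, with 12 higher and 0 lower at an unadjusted p under 0.05, and DESeq2 with the block called 1 higher and 0 lower, the kinase CDK1. Their median was 1.03, 0.42 and 0.33 in pairs 1, 2 and 3, largest in pair 1. Without the block it was 0.13 without SRF-FOXO1 replicate 3 and 1.26 without SRF-ICA1L replicate 3. CDK1 had 0.94 (edgeR adjusted p 0.194), the replication regulator CDC6 0.88 (0.229), and the proliferation marker MKI67 0.22 (0.798). The 18 stress and unfolded protein genes also had positive estimates in 18, with a median of 0.26 and 0 called by edgeR, with 7 higher and 0 lower at an unadjusted p under 0.05, and DESeq2 with the block called 1 higher and 0 lower, TRIB3.

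NF-kB targets, tested because SRF-RELA is part of the series, had 0 of 28 called, with 2 higher and 1 lower at an unadjusted p under 0.05, and DESeq2 with the block called 0 higher and 0 lower. Their median was 0.16, and 0.26, -0.42 and 0.31 by pair. Interferon response genes had 0 of 31 called, with 0 higher and 0 lower at an unadjusted p under 0.05, and DESeq2 with the block called 0 higher and 0 lower, at a median of -0.07 and -0.31, -0.28 and 0.45 by pair. In neither list did the 3 pairs share a sign. Hypoxia had 0 of 16 called (median 0.15), with 3 higher and 1 lower at an unadjusted p under 0.05, and DESeq2 with the block called 0 higher and 0 lower. Cholesterol synthesis had 0 of 21 called (median 0.17), with 0 higher and 0 lower at an unadjusted p under 0.05, and DESeq2 with the block called 0 higher and 0 lower. Homeobox genes had 0 of 32 called (median 0.05), with 1 higher and 0 lower at an unadjusted p under 0.05, and DESeq2 with the block called 0 higher and 0 lower. IGF ligands and binding proteins had 0 of 7 called (median -0.24), with 0 higher and 3 lower at an unadjusted p under 0.05, and DESeq2 with the block called 0 higher and 0 lower. Of 24 ion channel and calcium handling genes, 1 was called, PLN again (median 0.07), and DESeq2 with the block called 0 higher and 2 lower. Of the 5 cell marker lists 0 genes were called by edgeR or by DESeq2, with 1 Schwann and neural marker at an unadjusted p under 0.05, and medians were 0.07 for mesenchymal, -0.19 for endothelial, -0.12 for blood, 0.22 for epithelial and 0.04 for Schwann and neural markers.

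**Figure D5:**
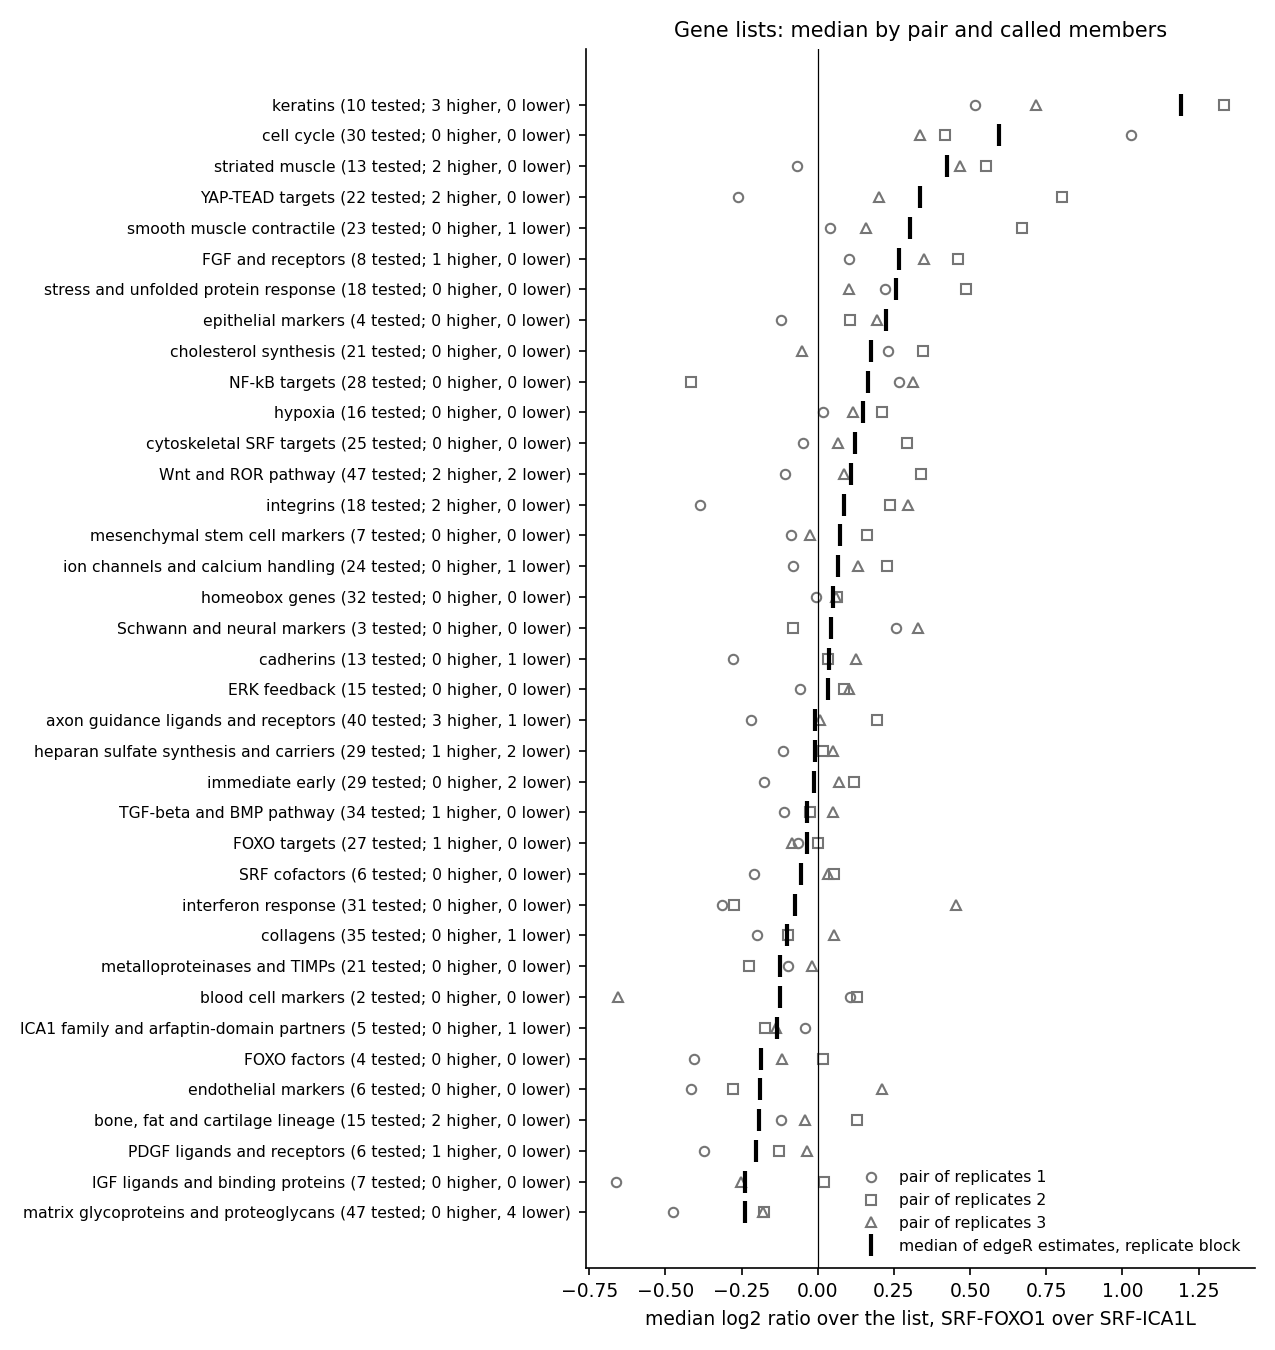
Median log2 ratio of SRF-FOXO1 over SRF-ICA1L for each gene list (horizontal axis) within pairs 1, 2 and 3 (open symbols) and as the median of the edgeR estimates with the block (black tick), with the number of genes tested and called in brackets. Keratins have the highest median, 1.19, with 3 called, cell cycle genes follow at 0.60 with 0 called, and matrix glycoproteins and proteoglycans have the lowest, -0.24, with 4 called lower.

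Values of the 2 fusions against the empty vector follow for genes that parted them. These comparisons share the pMSCV and SRF libraries, so the values are given side by side only. Against the vector and without the block, SRF-FOXO1 had 172 called genes (0.928%) and SRF-ICA1L had 87 (0.469%), and with the block 1304 (7.03%) and 864 (4.66%). EXTL1 was at 0.248, 0.129 and 0.104 CPM in pMSCV and 0.0742, 0.191 and 0 CPM in SRF, and without the block it was called in SRF-ICA1L against pMSCV (edgeR adjusted p 0.000485) and not in SRF-FOXO1 (adjusted p 0.17). With the block EXTL1 was called in both, with adjusted p of 1.21e-05 in SRF-ICA1L and 0.0486 in SRF-FOXO1. ROR2, KLHDC8A and ACP3 were called in SRF-ICA1L and not in SRF-FOXO1 in both fits, with adjusted p without the block of 0.00215, 0.000345 and 0.0131 in SRF-ICA1L and 0.88, 0.387 and 0.794 in SRF-FOXO1. DUSP2 was at 0, 0.129 and 0.104 CPM in pMSCV, with adjusted p of 0.0005 in SRF-ICA1L and 0.0608 in SRF-FOXO1 without the block, and it was called in both with the block (0.000116 and 0.0256). CDH3 was called in both in either fit, at 0, 0 and 0 CPM in pMSCV, with adjusted p of 0.0005 and 0.00495 without the block.

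In the other direction, F3 was at 37, 51.2 and 92.2 CPM in pMSCV, and the log2 estimates against it without the block were 3.18 (SE 0.50, edgeR adjusted p 0.0115) in SRF-FOXO1 and 0.73 (SE 0.47, edgeR adjusted p 0.644) in SRF-ICA1L. With the block, F3 was likewise called in SRF-FOXO1 (adjusted p 4.08e-06) and not in SRF-ICA1L (adjusted p 0.0788). PDGFB was at 0, 0 and 0.0346 CPM in pMSCV and without the block was called in SRF-FOXO1 (edgeR adjusted p 0.00495) and not in SRF-ICA1L (adjusted p 0.144). With the block PDGFB was called in both, with adjusted p of 1.5e-05 and 0.00892. For ACTA1, at 0.0354, 0 and 0.139 CPM in pMSCV, the adjusted p were 0.0226 and 0.764 without and 0.000453 and 0.473 with the block. COTL1 and CTPS1, called in SRF-FOXO1 and not in SRF-ICA1L in both fits, had log2 fold changes against pMSCV without the block of 0.90 (SE 0.13, edgeR adjusted p 0.0058) and 0.98 (SE 0.15, edgeR adjusted p 0.00688) in SRF-FOXO1, and of 0.17 (SE 0.13, edgeR adjusted p 0.698) and 0.10 (SE 0.15, edgeR adjusted p 0.873) in SRF-ICA1L. STC2 was called in neither without the block, at -0.32 (SE 0.33, edgeR adjusted p 0.667) in SRF-FOXO1 and -1.41 (SE 0.33, edgeR adjusted p 0.0881) in SRF-ICA1L. In the blocked fit STC2 was called lower than pMSCV in SRF-ICA1L (adjusted p 0.00135) and not in SRF-FOXO1 (adjusted p 0.431). OGN, ANKH and GPC6 had no call against the vector in the fit without the block. With it, OGN was called higher in SRF-ICA1L (adjusted p 0.00509), ANKH lower in SRF-FOXO1 (adjusted p 0.0484) and GPC6 in neither.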

How the data were processed

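RNA of 18 MSC-hTERT libraries was sequenced from stranded mRNA libraries on an Illumina NovaSeq instrument, per the labels' protocols. The authors deposited 1 table of raw counts per Ensembl gene, per the file headers, with 61487 identifiers and a column for each library. The submitters' processing notes name GRCh38, FastQC 0.11.8, Trimmomatic 0.39, HISAT2, featureCounts and Subread 2.0.3, while the annotation release and the strand setting of the counting are not given in the sources used here. Symbols came from a table of gene names (61369) or GENCODE 29 (105), and 13 identifiers had none. Gene positions are those of GENCODE 29 on GRCh38.

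Groups came from the treatment label. Genes were kept by filterByExpr (minimum count 10), which left 18544. In edgeR 4.0.16 (R 4.3.3) robust quasi-likelihood models were fitted to all 18 libraries after TMM scaling, the first with group terms alone (12 residual degrees of freedom). A second fit added the replicate number as a block, with 10 residual degrees of freedom, and the common biological coefficient of variation was 0.225 without and 0.150 with it. Tests were two-sided, adjusted by Benjamini-Hochberg over the 18544 genes, and called at an adjusted p under 0.05. The SE is the absolute log2 fold change divided by the square root of F. The fits were tested on simulated counts with known changes.

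To see if the numbers mark pairs, each library's deviations from its group mean were correlated across genes. Among the 6 libraries compared, same-numbered libraries gave 0.53, 0.54 and 0.43, and different numbers -0.12 to -0.44. Deviations within a group sum to 0, so positive values for the same number bring negative ones for different numbers. The negative values are therefore no further support. The other 12 libraries, to which the block was also fitted, were not correlated. The pairing is read from the same-numbered values, since the labels do not say what a number marks, and both fits are reported. No 2 replicates differed by as little as sampling noise.

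The comparison, the 37 gene lists and the genes named were chosen with earlier results of these data known. Of 839 list entries 838 matched an identifier and 721 were tested. Lists are described by counts and medians, without a list test. Named are SRF, FOXO1 and ICA1L, the genes called without the block, the 15 genes higher and 15 lower with the largest change with the block among those with a symbol, 1 sign in 3 pairs and mean log2 CPM not under 1, up to 4 called genes per list, and ACTA2, ACTG2, CNN1, TAGLN, ACTC1, MYH11, VCL, FOS and EGR1. Genes outside this rule are said to be so, other than list members given as context and the 26 genes called in each fit without 1 library. Some genes that meet it are not reported here. Alternatives were DESeq2 size factors, total count scaling, the DESeq2 1.42.0 Wald test, other count filters, a fold threshold, only the 6 compared libraries, and leaving out libraries.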

Additional observations from a re-analysis of the deposited data

How the results depend on the processing

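Without the replicate block, 5 genes were called, and 169 with it. The 5-gene count was 5 with DESeq2 size factors and with a fold threshold of 2, 8 with total count scaling (2 higher, 6 lower), 27 without a count filter (11 higher, 16 lower), 1 with at least 10 counts in every library, 2 with only the 6 libraries compared (1 higher, 1 lower, and 1 of the 5 genes) and 85 with the DESeq2 Wald test (47 higher, 38 lower), and from 1 (without SRF-ICA1L replicate 2) to 12 (without SRF-FOXO1 replicate 1) when 1 library was left out. The 169-gene count was 162 with DESeq2 size factors, 191 with total count scaling (110 higher, 81 lower), 287 without a count filter, 82 with at least 10 counts in every library, 303 with only the 6 libraries compared, 344 with the DESeq2 Wald test, 112 with a fold of at least 2, and 5 with no replicate block. It was 30 to 176 without 1 library (30 without SRF-ICA1L replicate 2, 59 without SRF-FOXO1 replicate 2, 78 without SRF-ICA1L replicate 3) and 49, 17 and 18 when all libraries numbered 1, 2 or 3 were left out. ICA1L was called under every alternative of both fits. Directions turned for 6 named genes, none of them called with all libraries. Without the block and with 1 library left out, the log2 fold change ran from -0.55 to 0.10 for FOXO1, -1.0 to 0.69 for FOS, -1.21 to 0.027 for EGR1, -0.21 to 0.92 for CNN1, -0.36 to 0.62 for TAGLN and -0.088 to 0.70 for VCL. The turned values are 0.10, 0.69 and 0.027 without SRF-ICA1L replicate 1 for the first 3, and 0.34 for FOS and the lowest values of CNN1, TAGLN and VCL without SRF-FOXO1 replicate 2. With the replicate block, TAGLN ran from -0.060 to 0.41 and VCL from -0.035 to 0.61, with the lowest values without SRF-FOXO1 replicate 2, and they were -0.060 and -0.042 without all libraries numbered 2. No called value of a named gene turned. The causes of these changes were not tested. Of the alternative values of the named genes with the block, 901 kept direction and side of the threshold, 476 kept direction and lost the call, and 4 gained one. The lowest counts behind named genes, such as 0 to 3 per library for ROR2 in SRF-FOXO1, leave wide counting intervals. Median log2 fold changes over 5 bins of transcript length went from 0.05 in the shortest to -0.05 in the longest, and the part of this in the results was not tested.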

Other observations

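Several genes that were low in SRF-FOXO1 and high in SRF-ICA1L were also counted in SRF-RELA. ITIH3 was at 3.95, 24.8 and 7.69 CPM in SRF-RELA replicates 1, 2 and 3, EXTL1 at 2.67, 6.07 and 4.09 CPM and MEST at 37.1, 53.9 and 93.2 CPM. ROR2 was at 0.355, 0.771 and 0.292 CPM and KLHDC8A at 0.666, 0.491 and 0.376 CPM in SRF-RELA, between the values of the other 2 fusions. SRF-RELA also had ACTA1 at 8.13, 114 and 19.8 CPM and ACTC1 at 1.82, 42.7 and 9.11 CPM, highest in replicate 2 as in SRF-FOXO1. SRF-PDGFRB stayed low, with ITIH3 at 0.0348, 0.24 and 0.207 CPM, EXTL1 at 0.139, 0.275 and 0.31 CPM and ACTA1 at 0.139, 0.0343 and 0.155 CPM. These differences from SRF-RELA and SRF-PDGFRB were not tested here.

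Further genes outside the lists were called, of which GOLGA8F, GOLGA8G and ABCB10P4 lie in duplicated sequence, where reads could be split between copies. GOLGA8F and GOLGA8G, near-identical golgin genes, were at 0.772, 3.6 and 0.416 CPM and 2.28, 10.2 and 1.48 CPM in SRF-FOXO1 against 0.0792, 0.243 and 0 CPM and 0.119, 0.625 and 0.25 CPM in SRF-ICA1L. The pseudogene ABCB10P4 was at 0.738, 1.53 and 0.601 CPM against 0.0396, 0.0695 and 0.0417 CPM. PKP1 (plakophilin 1), a desmosome protein, was at 0.268, 6.77 and 0.463 CPM against 0, 0.243 and 0.0417 CPM, and EN1, a homeobox gene, at 12.8, 18.7 and 7.31 CPM against 5.7, 3.79 and 3.25 CPM. These genes were chosen after their values were seen, and each was called higher in SRF-FOXO1 with the block and not without it, with edgeR adjusted p of 0.017, 0.00576, 0.0169, 0.0205 and 0.00432. DESeq2 with the block did not call GOLGA8G (adjusted p 0.0704) or PKP1 (adjusted p 0.27). Of the 6 edgeR fits with the block that left out 1 library, 2, 4, 2, 3 and 5 called these genes, in the same order, and each lost its call without SRF-ICA1L replicate 2 (adjusted p 0.291, 0.126, 0.231, 0.497 and 0.0557).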
